A study of Mus musculus with 6 samples.

Results

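The glucocorticoid receptor is a hormone-activated transcription factor. In resting cells it sits in the cytoplasm with Hsp90 chaperones, and a bound steroid sends it to the nucleus, where it raises some genes through paired hormone response elements and lowers others by acting against AP-1 and NF-kB. Dexamethasone, a synthetic glucocorticoid, is a standard part of the medium that turns osteoblast precursors into matrix-forming cells, while long exposure to glucocorticoids is a known cause of bone loss.

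The 10 genes described here are the receptor gene Nr3c1, the steroid-activating enzyme gene Hsd11b1 and 8 genes known to be raised by glucocorticoids, Tsc22d3, Zbtb16, Fkbp5, Per1, Sgk1, Klf9, Errfi1 and Lcn2. They were matched by gene name, and all 10 were found among the 54532 genes of the deposited table. The set was chosen by role and with the metformin against control values of these same samples in view, so the differences of its members are given as a description, with no p-value.

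RNA sequencing was done on MC3T3-E1 cells, an osteoblast precursor line from mouse calvaria. Cells in osteogenic medium alone (OM, the control, titled nc, 3 samples) were compared with cells in osteogenic medium and metformin (OM + metformin, titled met, 3 samples). The sample titles do not name the medium, which is taken from the study's text. By the study's methods, induction lasted 3 days, metformin, a biguanide that lowers blood glucose, was at 0.2 mM, and the osteogenic medium of both groups held 10 nM dexamethasone with ascorbic acid and β-glycerophosphate. No group without dexamethasone was analysed here, so the induction of these genes by the steroid was not measured. Values are FPKM, reads scaled to gene length and library size, behind which lay 18399861 to 20652437 reads per sample in OM and 19256672 to 22111790 with metformin.

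Control replicate 1 stood apart from the other controls, with Pearson correlations across genes of 0.96 and 0.952 against 0.988 between replicates 2 and 3, and values without it are given where they matter. Reads of mitochondrially encoded genes made up 6.36% to 10.01% of the OM libraries and 2.72% to 3.16% of the metformin libraries, and the part of this shift in the differences below was not tested. The osteoblast label was checked with 10 markers, all above the limit for testing, among them Runx2 at 25.8 to 34.1 FPKM and Sp7 at 36.8 to 54.0 FPKM over the 6 samples. Alpl, at 2.44 to 3.84 FPKM, and Bglap, at 2.22 to 12.3 FPKM, were low. Transcripts of Bglap2 and Bglap3 are near-identical to that of Bglap, and how reads shared between them were counted is not given in the sources used here. The summed level of the 10 markers was 11908 to 13968 FPKM in OM and 8759 to 9242 FPKM with metformin, with Spp1 and Ibsp called lower and Col1a1 and Col1a2 called higher. Most of the OM sum was Spp1, with means of 7703.5 FPKM in OM and 2703.6 FPKM with metformin. What these shifts contribute to the values below was not tested. Of markers of other cells, Cidec, Retn, Myog and Myod1 had no reads, and Adipoq (at most 0.119 FPKM), Acan (at most 0.0270), Ptprc (at most 0.0156) and Cdh5 (at most 0.0328) were near 0. The adipocyte-associated gene Fabp4 was above the limit for testing, at 1.65 to 2.95 FPKM over the 6 samples, and made up nearly all of the summed level of the 5 adipocyte markers. The 4 macrophage markers summed to 1.97 to 2.18 FPKM in OM and 1.12 to 1.35 FPKM with metformin, nearly all of it Cd68, which is not limited to macrophages, and the cartilage genes Sox9 and Col2a1 reached 28.1 and 11.9 FPKM.

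The receptor gene itself overlapped between the groups. Nr3c1 (chromosome 18, 39410545 to 39491301, minus strand) had 17.7, 12.2 and 12.5 FPKM in OM and 13.6, 14.6 and 14.4 FPKM with metformin. The control samples lay on both sides of the metformin samples, with replicate 1 highest of all 6. The means were 14.1 ± 3.07 FPKM (SD, n = 3) and 14.2 ± 0.507 FPKM (SD, n = 3), and the log2 fold change of FPKM + 1, fitted with limma-trend over all tested genes, was 0.02 with a standard error of 0.14. Without control replicate 1 the OM mean was 12.4 FPKM, the groups no longer overlapped and the log2 fold change was 0.18. The sign also turned with the scaling, to -0.0032 when libraries were scaled by their total reads.

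Hsd11b1 (chromosome 1, 193221634 to 193264075, minus strand) encodes the reductase that regenerates active glucocorticoids from their inert keto forms. Its level was low, with 0.271, 0.314 and 0.263 FPKM in OM and 0.130, 0.140 and 0.0845 FPKM with metformin, and lay under the mean of 0.5 FPKM required for testing. Behind these values were 21, 28 and 22 reads in OM and 11, 13 and 7 reads with metformin, so all 3 metformin samples were lower, by 2.39-fold on the group means, at a depth of few reads. Lamb3 and 2 other genes overlap it, with up to 13 reads in a sample, and whether reads were counted by strand is not given in the sources used here.

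The most abundant member in OM was Tsc22d3, which encodes the glucocorticoid-induced leucine zipper protein, a mediator of the anti-inflammatory action of the steroid. Tsc22d3 (chromosome X, 140539528 to 140600659, minus strand) had 526, 552 and 526 FPKM in OM and 166, 172 and 175 FPKM with metformin. No sample of one group came near the other, and the spread within each group was small. The mean fell from 535 ± 15.2 FPKM (SD, n = 3) to 171 ± 4.79 FPKM (SD, n = 3), which is 3.13-fold lower and a log2 fold change of -1.64 with a standard error of 0.085. By mean FPKM it stood at rank 47 of the 12681 tested genes in OM and at rank 228 with metformin.

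By the ratio of means, Zbtb16 had the largest difference of the 9 tested members, at a far lower level. It encodes a zinc finger transcription factor that is raised by dexamethasone in osteoblast precursors. Zbtb16 (chromosome 9, 48654297 to 48836222, minus strand) had 4.90, 5.54 and 8.07 FPKM in OM and 1.43, 1.35 and 1.35 FPKM with metformin. The 3 metformin samples were nearly equal, whereas control replicate 3 was well above the other controls. The mean was 4.49-fold lower with metformin, from 6.17 ± 1.67 to 1.38 ± 0.0476 FPKM (SD, n = 3 each), while the log2 fold change of FPKM + 1 was -1.57 (standard error 0.16). The constant of 1 shrinks differences of low genes, and with a constant of 0.1 the log2 fold change was -2.06.

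Fkbp5 encodes a co-chaperone that binds Hsp90 in the receptor complex and lowers the affinity of the receptor for hormone, a feedback on glucocorticoid signalling. Fkbp5 (chromosome 17, 28399094 to 28517527, minus strand) had 97.7, 94.7 and 102 FPKM in OM and 56.0, 55.8 and 55.1 FPKM with metformin. The lowest control was far above the highest metformin sample. The mean was 1.77-fold lower, 98.3 ± 3.86 against 55.6 ± 0.470 FPKM (SD, n = 3 each), with a log2 fold change of -0.81 (standard error 0.079).

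Sgk1 encodes the serum- and glucocorticoid-regulated kinase, which acts downstream of PI3K and controls ion channels and transporters. Sgk1 (chromosome 10, 21882184 to 21999903, plus strand) had 352, 320 and 331 FPKM in OM and 220, 215 and 202 FPKM with metformin. The groups were well separated. The mean was 1.57-fold lower, 334 ± 16.1 against 213 ± 9.46 FPKM (SD, n = 3 each), with a log2 fold change of -0.65 (standard error 0.091).

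Sgk1 also carried the one complete receptor element found before the start sites of the members. RefSeq promoter windows (GRCm38.p6) were searched over the 250 bases before each start, on both strands, for AGAACA followed by 3 bases and TGTTCT. Of the 10 members 8 had an entry, with 17 windows, and neither Nr3c1 nor Zbtb16 had one. Only 3 of 32851 windows of all genes (0.00913%) held the complete element, and 1 of them was a window of Sgk1. The match lies at chr10:21993701-21993715, positions -189 to -175 from an annotated start site inside the gene. The bases before that start site, chr10:21993640-21993889 on the plus strand, are shown because they hold this element, which is in capitals.

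Sgk1: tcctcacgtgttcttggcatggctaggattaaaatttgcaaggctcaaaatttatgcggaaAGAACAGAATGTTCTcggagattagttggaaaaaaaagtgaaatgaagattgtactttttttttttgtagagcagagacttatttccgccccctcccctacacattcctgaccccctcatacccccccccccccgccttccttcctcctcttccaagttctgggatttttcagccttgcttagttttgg

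The other windows with the complete element belonged to Acnat2, listed at 0 in all samples, and to Gm35041, which had a mean of 0.261 FPKM in OM and was listed at 0 with metformin. A looser element, GNACA followed by 3 bases and TGTNC, was chosen after these matches were seen. It was found in 0.387% of all windows and, among the members, at the same place in Sgk1 alone. A single arm of the element, AGAACA or TGTTCT, was in 16.1% of all windows. Among the members it was in 3 of the 6 windows of Sgk1, 1 of them the window with the complete element, and in 1 of the 3 windows of Tsc22d3, at positions -185 to -180. The windows of Fkbp5, Klf9, Per1, Errfi1, Lcn2 and Hsd11b1 held none. These are matches of letters in short windows and do not show binding.

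Klf9 and Lcn2 differed less. Klf9 (chromosome 19, 23141226 to 23166911, plus strand), a Krüppel-like transcription factor, had 27.7, 30.1 and 32.3 FPKM in OM and 22.0, 20.9 and 21.3 FPKM with metformin, which gave a log2 fold change of -0.47 (standard error 0.088). Lcn2 (chromosome 2, 32384633 to 32388252, minus strand), a secreted protein that binds iron-carrying siderophores, had 4.72, 5.40 and 4.21 FPKM in OM and 3.42, 3.18 and 2.99 FPKM with metformin, which gave -0.46 (standard error 0.10). For both genes every metformin sample was under every control, by 1.41-fold and 1.49-fold on the means.

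Per1 and Errfi1 overlapped between the groups. Per1 (chromosome 11, 69095217 to 69109960, plus strand), a repressor of the circadian clock that also responds to glucocorticoids, had 18.3, 23.5 and 33.8 FPKM in OM and 19.6, 19.8 and 19.1 FPKM with metformin. Control replicate 1 was the lowest of the 6 samples and control replicate 3 the highest, and the log2 fold change was -0.31 (standard error 0.20). Without control replicate 1 the log2 fold change was -0.51 and the groups no longer overlapped. Errfi1 (chromosome 4, 150853919 to 150868892, plus strand), an inhibitor of EGF receptor kinases, had 80.1, 71.0 and 67.1 FPKM in OM and 71.0, 71.7 and 71.0 FPKM with metformin. Its log2 fold change was -0.03 (standard error 0.094), and its control samples lay on both sides of the metformin samples.

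**Figure D1:**
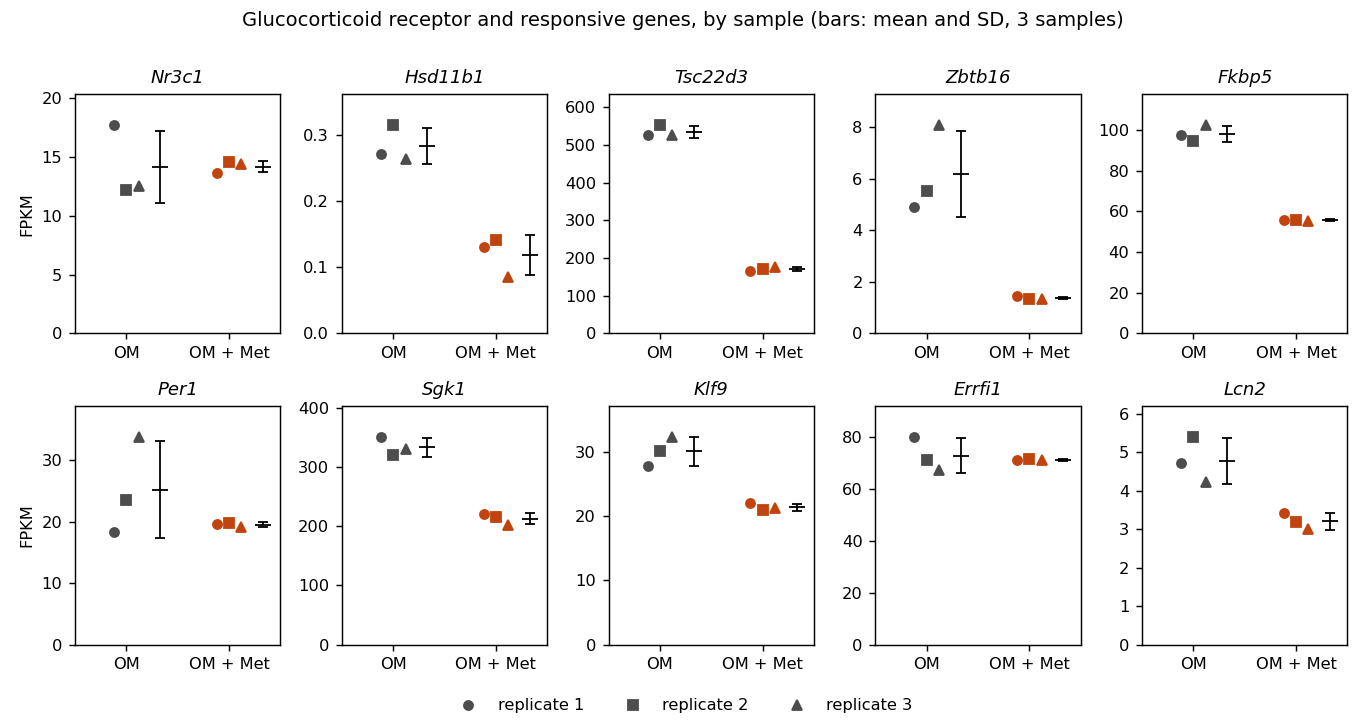
FPKM of the 10 genes in each sample (points, shaped by replicate number) of OM (grey) and OM + Met (orange), with the mean and SD of 3 samples as bars beside the points and each vertical axis starting at 0. The metformin samples lie under all controls for Hsd11b1, Tsc22d3, Zbtb16, Fkbp5, Sgk1, Klf9 and Lcn2, and among the controls for Nr3c1, Per1 and Errfi1.

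Counted over the set, 6 of the 9 tested members were called lower with metformin (limma-trend, Benjamini-Hochberg adjusted p under 0.05 over all tested genes) and 0 were called higher, where 9.28% of the 12681 tested genes were called lower and 13.2% higher. A correction for GC content turned the split over all genes from 1670 higher and 1177 lower to 2062 higher and 2433 lower, with these 6 members and Per1 lower. The same 6 had no overlap between the groups with metformin below, as did 20.5% of all tested genes, while 23.6% of all tested genes had metformin above. Nothing further is read from these counts, since the set was proposed with this contrast known. RNA of whole cultures was measured, so less RNA per cell and fewer cells expressing a gene cannot be told apart. Of the members, 3 overlap genes other than those named above in the annotation, and none of the overlapping genes of any member had more than 24 reads in a sample.

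The order of the levels changed between the groups. In OM the order by mean FPKM was Tsc22d3, Sgk1, Fkbp5, Errfi1, Klf9, Per1, Nr3c1, Zbtb16, Lcn2 and Hsd11b1. With metformin Sgk1 was above Tsc22d3, Errfi1 was above Fkbp5 and Lcn2 was above Zbtb16. Among neighbours in these orders, Klf9 and Per1, and Zbtb16 and Lcn2, overlapped between samples in OM, and no neighbours overlapped with metformin.

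The controls were more dispersed than the metformin samples over all genes, with median chi-square values between pairs of samples of 2.97 to 15.2 in OM and 1.19 to 1.41 with metformin, where counting alone gives 0.455. The 9 tested members followed this, each with a larger coefficient of variation in OM than with metformin, although the values of Tsc22d3 were 2.84% and 2.80%. It was 31.3% for Per1, 27.1% for Zbtb16 and 21.7% for Nr3c1 in OM, against 1.90%, 3.46% and 3.57% with metformin. Per1, Zbtb16 and Klf9 were lowest in control replicate 1 and highest in control replicate 3, whereas Nr3c1, Errfi1 and Sgk1 were highest in control replicate 1. Tsc22d3 had the smallest variation in OM.

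**Figure D2:**
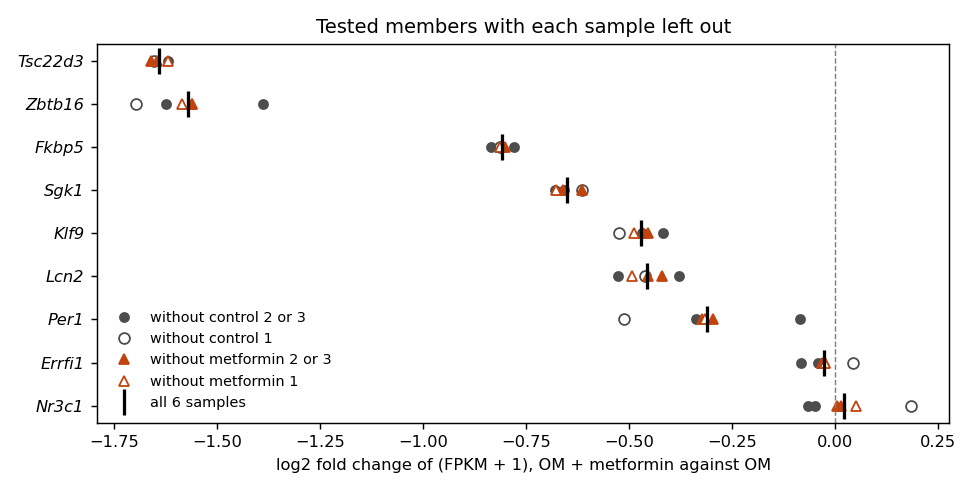
Log2 fold change of FPKM + 1, OM + metformin against OM, for the 9 tested members with all 6 samples (black bar) and with each sample left out in turn (grey circles for controls, orange triangles for metformin, open symbols for replicate 1). Tsc22d3, Zbtb16, Fkbp5, Sgk1, Klf9, Lcn2 and Per1 stay under 0 throughout, with Per1 between -0.51 and -0.085, while Nr3c1 and Errfi1 fall on both sides of 0.

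The wider pathway was read from 5 lists with 122 other genes, of which 92 were tested. The lists were written by role but with earlier results of these data known, so their counts are given as a description. Of the 44 other genes known to be induced by glucocorticoids 35 were tested, and 17 of these (48.6%) were called lower with metformin, 4 (11.4%) higher and 14 were not called. Of the 26 genes known to be repressed through the receptor 14 were tested, and 9 (64.3%) were called higher, 1 (7.14%) lower and 4 were not called. The median log2 fold change was -0.43 over the tested induced list and 0.78 over the tested repressed list, where that of all tested genes was 0.0053. Without metformin replicate 3 the induced genes called lower were 11, and without control replicate 1 they were 24. Over all tested genes these fits called 533 and 2590 lower, against 1177 with all samples. The repressed genes called higher were 6 without metformin replicate 1 or 2 and 10 without control replicate 1. Over all tested genes these fits called 938, 943 and 2969 higher, against 1670 with all samples. The calls include Ccl2, with an OM mean of 0.329 FPKM, and Rgs2, with a metformin mean of 0.455 FPKM, both under 0.5. Each passed the limit for testing only through the group where it was higher.

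**Figure D3:**
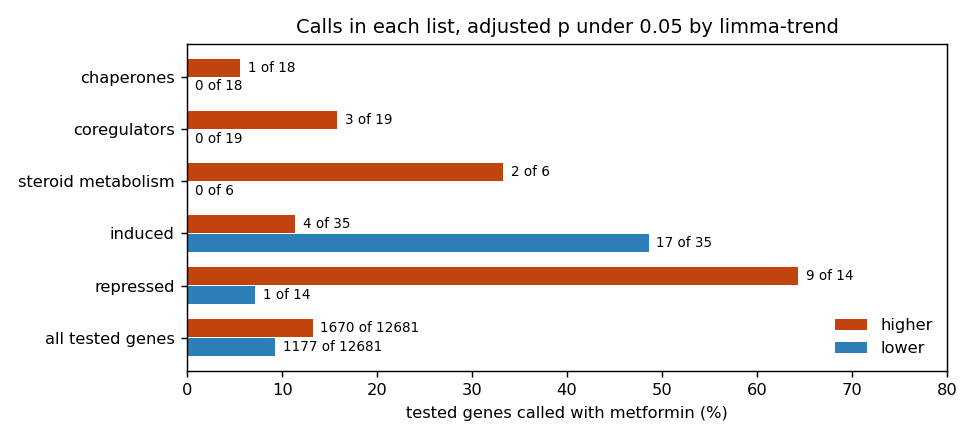
Share of the tested genes of each list called higher (orange) or lower (blue) with metformin, with the counts beside the bars and all 12681 tested genes in the bottom row. The induced list has 17 of 35 genes lower and the repressed list 9 of 14 genes higher.

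Among the induced genes the largest decreases in log2(FPKM + 1) were those of Txnip, Arrdc2, Sesn1 and Mgp. Txnip, an inhibitor of thioredoxin and of glucose uptake, had 149, 157 and 164 FPKM in OM and 33.8, 36.4 and 35.8 FPKM with metformin (log2 fold change -2.12 with SE 0.084, limma-trend adjusted p = 6.4e-05). Arrdc2, an arrestin-domain protein of the same family, had 30.8, 44.0 and 47.9 FPKM in OM and 10.7, 9.23 and 9.18 FPKM with metformin (log2 fold change -1.95 with SE 0.17, limma-trend adjusted p = 0.000478). For both genes every metformin sample was far under every control. Txnip overlaps the antisense gene Gm15441, which had at most 18 reads in a sample.

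Sesn1, a stress-induced inhibitor of mTORC1, fell from 87.1 ± 11.6 to 25.8 ± 0.197 FPKM (SD, n = 3 each), with a log2 fold change of -1.71 (adjusted p = 0.000193 by limma-trend). Mgp, the matrix Gla protein that inhibits calcification, fell from 2917 ± 372 to 1254 ± 60.2 FPKM (SD, n = 3 each), a log2 fold change of -1.21 (adjusted p = 0.000960). By the ratio of means, Rgs2 (2.95-fold lower) and Lpin1 (2.42-fold lower), both called, were ahead of Mgp (2.33-fold lower). Rgs2 had 27, 38 and 36 reads with metformin, a mean of 0.455 FPKM, and passed the limit for testing only through the OM samples.

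The 4 induced genes that went the other way were Zfp36, Dusp1, Acsl1 and Pdk4. Zfp36, which encodes an mRNA-decay factor, had 5.78, 16.0 and 13.3 FPKM in OM and 34.7, 34.0 and 31.5 FPKM with metformin (log2 fold change 1.54 with SE 0.32, limma-trend adjusted p = 0.0169). Dusp1, a phosphatase of MAP kinases, had 23.0, 29.6 and 28.4 FPKM in OM and 82.9, 69.7 and 55.7 FPKM with metformin (log2 fold change 1.32 with SE 0.17, limma-trend adjusted p = 0.00236). Both are also known as immediate early genes that respond to serum and MAP kinase signals. Which inputs moved these or the other listed genes was not tested. Acsl1, which activates fatty acids, rose by 0.54 log2 units (limma-trend adjusted p = 0.00447), and Pdk4, the kinase that inhibits pyruvate dehydrogenase, by 0.51 (adjusted p = 0.0441). The calls of Zfp36 and Pdk4 were lost without metformin replicate 1, 2 or 3, and that of Pdk4 also without control replicate 2 or 3. Without control replicate 1 the log2 fold change of Zfp36 was 1.14 and that of Dusp1 1.21, which reversed their order.

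Among the repressed genes the largest increases in log2(FPKM + 1) were those of Ptgs2, Ccl2, Plau and Igf1. Ptgs2, the inducible cyclooxygenase gene, had 2.14, 1.46 and 1.60 FPKM in OM and 26.0, 22.0 and 22.9 FPKM with metformin, 13.6-fold higher on the means (log2 fold change 3.18 with SE 0.12, limma-trend adjusted p = 6.4e-05). Ccl2, a monocyte chemokine, had 0.337, 0.293 and 0.358 FPKM in OM and 3.23, 4.07 and 3.74 FPKM with metformin, 11.2-fold higher (log2 fold change 1.81 with SE 0.10, limma-trend adjusted p = 0.000112). For both genes the lowest metformin sample was several times the highest control.

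Plau, the urokinase plasminogen activator gene, rose from 4.997 ± 1.21 to 16.4 ± 0.683 FPKM (SD, n = 3 each), a log2 fold change of 1.55 (adjusted p = 0.000829 by limma-trend). Igf1, a bone growth factor whose expression in osteoblasts glucocorticoids lower, rose from 1.89 ± 0.431 to 5.92 ± 0.0661 FPKM (SD, n = 3 each), a log2 fold change of 1.27 (adjusted p = 0.000672). The other genes of the list called higher were Lif, Ccl7, Csf1, Vcam1 and Col1a1, the last of which is also an osteoblast marker. By the ratio of means, Ccl7 (4.18-fold higher) was ahead of Plau (3.28-fold) and Igf1 (3.12-fold), but its OM values rest on 15, 10 and 2 reads. The only gene of the list called lower was the collagenase gene Mmp13, with 599, 533 and 462 FPKM in OM and 194, 203 and 201 FPKM with metformin (log2 fold change -1.40 with SE 0.12, limma-trend adjusted p = 0.000415). The tested genes not called were the osteocalcin genes Bglap2 (-0.57, SE 0.27) and Bglap (-0.28, SE 0.50), Tnfrsf11b (-0.07, SE 0.19) and Il6 (0.47, SE 0.15). Bglap and Bglap2 have transcripts near-identical to each other and to Bglap3, so their values may not be separate measurements. Of the 12 repressed genes under the limit for testing, 7 had no reads in any sample.

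**Figure D4:**
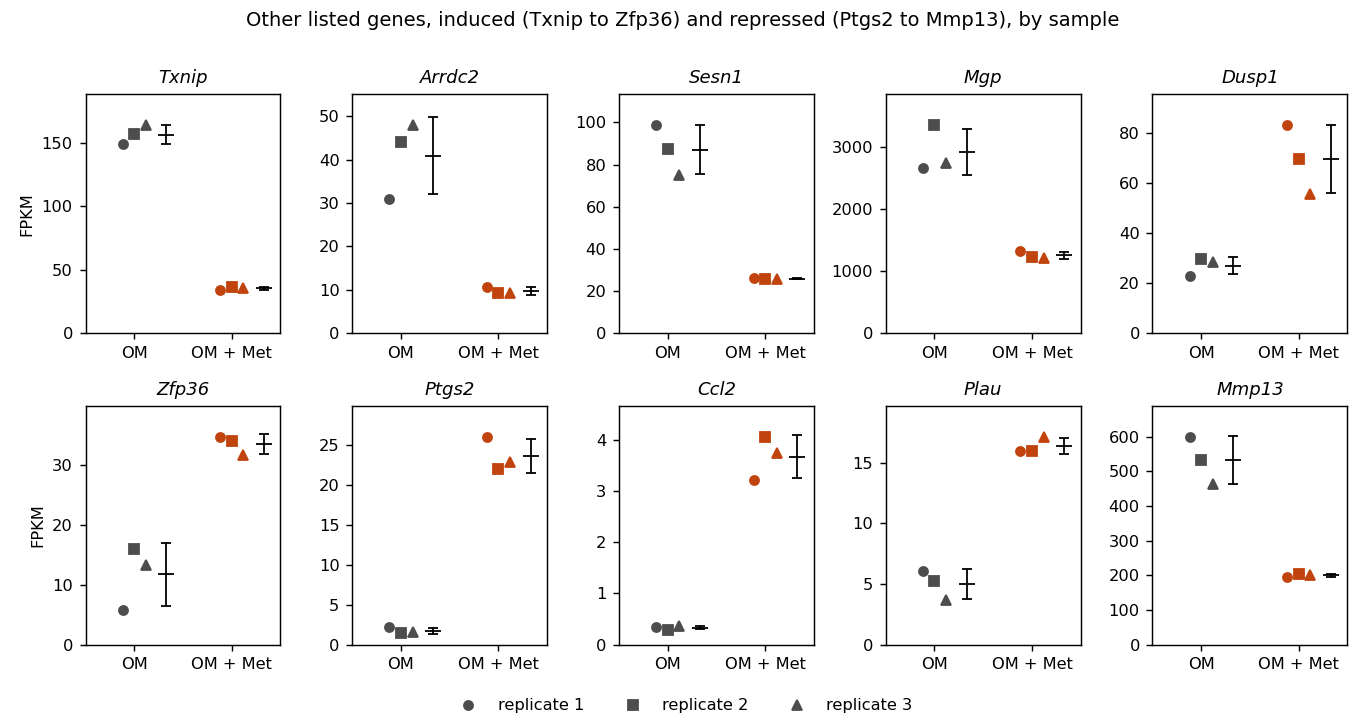
FPKM of 10 other listed genes in each sample (points, shaped by replicate number) of OM (grey) and OM + Met (orange), with mean and SD of 3 samples as bars and each vertical axis starting at 0. The groups do not overlap for any of the 10, with metformin below for Txnip, Arrdc2, Sesn1, Mgp and Mmp13 and above for Dusp1, Zfp36, Ptgs2, Ccl2 and Plau.

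In the 3 lists of the receptor machinery the calls were all upward, where 13.2% of all tested genes were called higher. Of 18 tested chaperones and transport factors 1 (5.56%) was called higher and 0 lower, and the one was Stip1, the adaptor between Hsp70 and Hsp90, which rose by 0.62 log2 units (SE 0.18, limma-trend adjusted p = 0.0487). The call of Stip1 was lost in 5 of the 6 fits that left out a sample, all but the one without control replicate 1. In that fit the log2 fold change of Stip1 was 0.42, and 6 genes of this list were called higher and 2 lower. Over all tested genes the same fit called 2969 higher and 2590 lower. Hsp90ab1 and Hsp90aa1, the Hsp90 genes, were not called, with log2 fold changes of 0.28 (standard error 0.090) and 0.42 (standard error 0.16), nor was Fkbp4, the co-chaperone opposed to Fkbp5, with 0.39 (standard error 0.17). Of 19 tested coregulators 3 (15.8%) were called higher and 0 lower. These were Med14, a Mediator subunit (0.60, adjusted p = 0.0248), Smarca4, the motor of the BAF remodelling complex (0.50, adjusted p = 0.0304), and the deacetylase gene Hdac6 (0.30, adjusted p = 0.0463). None of the 3 calls held without metformin replicate 1, 2 or 3 or without control replicate 2, and only that of Smarca4 held without control replicate 3.

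Of the genes of steroid metabolism, efflux and related receptors 6 of 13 were tested, and 2 of these (33.3%) were called higher and 0 lower. Abcb1b, an efflux pump that exports dexamethasone, had 2.15, 1.32 and 1.42 FPKM in OM and 3.58, 3.58 and 3.87 FPKM with metformin (log2 fold change 0.84 with SE 0.13, limma-trend adjusted p = 0.00546). Every metformin sample was above every control. Srd5a1, a steroid reductase gene, rose by 0.50 (adjusted p = 0.0323), a call that was lost in 5 of the 6 fits that left out a sample, all but the one without control replicate 1, and the gene overlaps Nsun2, which had up to 1372 reads in a sample. H6pd, which supplies NADPH to the enzyme encoded by Hsd11b1, was not called, at 10.7 FPKM in OM and 13.1 FPKM with metformin on the means (log2 fold change 0.26, standard error 0.078). The mineralocorticoid receptor gene Nr3c2 and Hsd11b2, whose enzyme inactivates glucocorticoids, had group means of at most 0.0349 and 0.0974 FPKM.

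**Figure D5:**
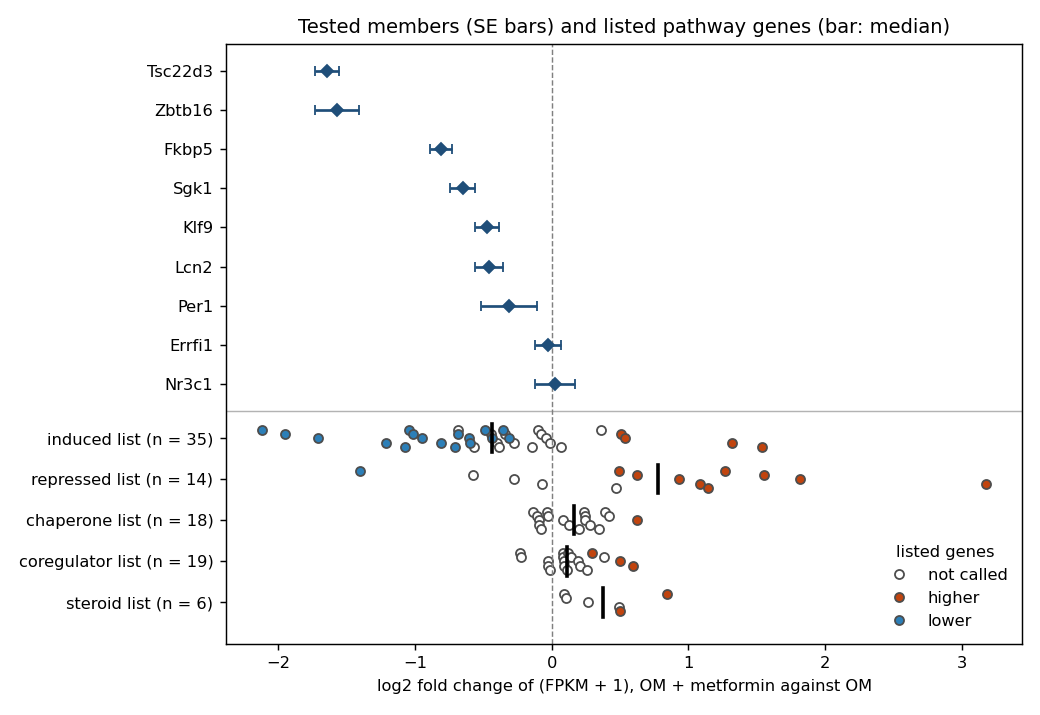
Log2 fold change of FPKM + 1, OM + metformin against OM, for the 9 tested members (diamonds with SE) and for every tested gene of the 5 lists (circles, orange where called higher, blue where called lower and open where not called, with the list's median as a black bar). The medians are -0.43 for the induced list and 0.78 for the repressed list, and those of the 3 lists of the receptor machinery lie between 0.11 and 0.38.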

How the data were processed

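RNA sequencing of 6 samples was analysed from the 1 table the authors deposited, with 54532 genes, 1 column per sample and 0 unused columns of per-sample values. The table names no unit. Multiplied by gene length and divided by a constant of each sample, 100% of the deposited values gave whole reads (tolerance 0.001), so they were taken as FPKM, made by the authors from reads, gene length and an effective library size. The submitters' notes list Bowtie 0.12.2 and the builds mm8 and mm9, with no role given. The deposited coordinates match GENCODE M21 (GRCm38) for 53499 of 54409 shared identifiers, and for 8 of the 10 members. The authors tested with DESeq2.

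Groups and replicate numbers came from the sample labels. Since the deposited unit is not counts, the main test was on the log scale: limma 3.58.1 (R 4.3.3, intensity trend) was fitted to log2(FPKM + 1) for the 12681 genes with a mean of at least 0.5 FPKM, two-sided, with Benjamini-Hochberg adjustment and a threshold of 0.05. The script was tested on simulated data. The labels do not say whether replicates were separate cultures, although the methods call them biological. The p-values therefore set the difference of the group means against the spread between these samples, pooled over both groups. Limma draws each gene's spread toward a trend over all tested genes. The standard errors and p-values thus do not rest on the gene's own spread alone. Precision is limited by 3 samples a group, and 3 reads, taken as the counting floor, are at most 1.6e-05% of a library.

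The members and lists were chosen with earlier results of these data known. Named genes are the members and, in each list, up to 4 called genes in each direction with the largest log2 fold change and no overlap. Other genes of the lists named in the text were chosen after their values were seen. Near-identical transcripts (95% over 200 bases, BLAST+ 2.17.0) and overlapping genes were looked up. Alternatives were a constant of 0.1, scaling by total reads, no filter, a mean of at least 1 FPKM, the replicate number as a block, voom on recovered reads, a GC correction (spline, 5 degrees of freedom) and leaving out each sample. Figures were drawn with matplotlib 3.10.9.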

Additional observations from a re-analysis of the deposited data

How the results depend on the processing

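Over all tested genes, 1670 were higher and 1177 lower. Lower genes were 698 with the replicate block, 2433 (and 2062 higher) after GC correction, and 1888 when block and GC correction were combined. Leaving out one sample gave 938 to 2969 higher and 495 to 2590 lower genes, the maxima without control replicate 1. Over the 5 lists, 19 genes were higher and 18 lower, 9 to 30 and 12 to 29 in the same fits. Same-numbered samples share only a number, with correlations of -0.053, 0.00027 and -0.055 between their deviations. The cause of these moves was not tested.

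Of the members, Tsc22d3, Zbtb16, Fkbp5 and Sgk1 were past the threshold in each of the 15 fits, Klf9 in 11, Lcn2 in 9, Per1 in 3 and Nr3c1 in 1, higher without control replicate 1. Errfi1 was past it in 0 of the 15. Hsd11b1 entered 1 fit, that without the filter, and was past it. With the replicate block 4 members were lower, without Klf9 and Lcn2, where 698 of all tested genes were lower against 1177 in the main fit. All these fits reuse the same 6 samples, and the set was proposed with this contrast known. The counts for the members are thus a description only. Of the named list genes, Mgp and Med14 lost their calls without the filter, and Stip1, Smarca4, Hdac6, Srd5a1 and Pdk4 lost theirs without the filter and with the replicate block. The calls of Stip1, Smarca4 and Hdac6 were also lost with scaling by total reads. With block and GC correction combined, those of Hdac6 and Srd5a1 were lost too. No named call reversed. Of count-based tests, voom on the recovered reads was run, and DESeq2 and edgeR were not.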
